A study of Homo sapiens with 12 samples.

Results

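The 10 chemokine genes CXCL1, CXCL2, CXCL3, CXCL5, CXCL6, CXCL8, CCL20, CXCL10, CXCL11 and CCL5 were followed in the oral squamous cell carcinoma (OSCC) cell lines HN6 and HN30. They were chosen by symbol, the first 7 as neutrophil or NF-kappa B type chemokines and the last 3 as interferon type chemokines. They are 10 of the 19225 entries of the count table, and all 10 passed the filter on low counts that left 13887 genes for testing. Poly(A) RNA was sequenced 24 h after transfection of each line with a scrambled siRNA (NC) or with 1 of 2 siRNAs against the giant cadherin FAT1, siFAT1-1 and siFAT1-2. Each of the 6 conditions, namely HN6 and HN30 with NC, siFAT1-1 or siFAT1-2, had 2 libraries made at separate times (repeat 1 and repeat 2), which gave 4 NC and 8 FAT1 knockdown (KD) libraries. All libraries, NC included, came from cells that had received an siRNA with a transfection lipid, and untransfected cells were not analysed here. HN6 and HN30 are established human lines grown as pure cultures, so the receiving leukocytes of a tumor are not part of the model. In comparisons within a line or between the lines, p-values rest on the spread between 2 repeats of a condition. In comparisons over both lines, the spread used also holds differences between the lines in the siRNA effect. For KD against NC it holds differences between the siRNAs as well.

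Chemokines are small secreted proteins that draw leukocytes along a gradient. CXCL1, CXCL2, CXCL3, CXCL5, CXCL6 and CXCL8 carry a Glu-Leu-Arg (ELR) motif ahead of their cysteines and call neutrophils through the receptor CXCR2, and CXCL6 and CXCL8 also use CXCR1. CCL20 calls CCR6-bearing lymphocytes and dendritic cells. The genes for these proteins are classical targets of NF-kappa B downstream of IL-1, TNF and IL-17. CXCL10 and CXCL11 attract T and NK cells through CXCR3, CCL5 attracts T cells and monocytes, and these genes respond to interferon through IRF factors, often together with NF-kappa B. In squamous carcinomas the ELR chemokines are commonly made by the tumor cells themselves.

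The 6 ELR genes lie together on chromosome 4, on GRCh38 at chr4:73740519-74099196, a span of 358.7 kb. CXCL10 and CXCL11 form a second pair of neighbours at chr4:76021118-76041415, 20.3 kb long, whereas CCL20 is on chromosome 2 (chr2:227805739-227817564) and CCL5 on chromosome 17 (chr17:35871491-35880793). Each of the 10 genes has 4 exons in its canonical GENCODE 44 transcript. The ELR genes are similar enough to share sequence: the longest identical run between annotated transcripts was 97 nt for CXCL2 and CXCL3, 77 nt for CXCL1 and CXCL2, 55 nt for CXCL1 and CXCL3 and 45 nt for CXCL5 and CXCL6, all shorter than the 150-base reads. A full-length read therefore does not lie wholly within such a run. Whether any reads of these genes were counted for a neighbour was not tested.

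Promoters of 9 of the 10 genes were found among the RefSeq promoters (GRCh38.p14; 250 bases before to 50 after the start site), all but CCL5. Those of CXCL1, CXCL2, CXCL3 and CXCL8 are shown because these genes differ between the groups described below, and that of CXCL10 as an example of the interferon type, each read 5′ to 3′ along the gene, with matches to searched motif letters in capitals. The letters were GGNNTTNCC for the NF-kappa B type, TGANTCA for the AP-1 type and GAAANNGAA for the interferon response element type, each searched on both strands. CXCL1 is at chr4:73869143-73869442 (plus strand), CXCL2 at chr4:74099146-74099445 (minus), CXCL3 at chr4:74038640-74038939 (minus), CXCL8 at chr4:73740319-73740618 (plus) and CXCL10 at chr4:76023448-76023747 (minus).
CXCL1: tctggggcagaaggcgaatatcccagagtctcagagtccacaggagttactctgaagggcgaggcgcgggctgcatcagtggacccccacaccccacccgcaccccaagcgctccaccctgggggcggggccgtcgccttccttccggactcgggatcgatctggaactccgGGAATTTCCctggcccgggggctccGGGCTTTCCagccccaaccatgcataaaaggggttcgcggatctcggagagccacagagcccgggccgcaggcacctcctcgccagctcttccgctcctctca
CXCL2: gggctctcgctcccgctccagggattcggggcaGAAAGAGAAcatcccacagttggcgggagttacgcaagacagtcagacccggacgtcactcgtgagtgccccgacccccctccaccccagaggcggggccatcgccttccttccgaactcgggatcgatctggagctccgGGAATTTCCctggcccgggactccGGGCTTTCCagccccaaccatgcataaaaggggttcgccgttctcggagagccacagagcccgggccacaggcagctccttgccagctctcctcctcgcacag
CXCL3: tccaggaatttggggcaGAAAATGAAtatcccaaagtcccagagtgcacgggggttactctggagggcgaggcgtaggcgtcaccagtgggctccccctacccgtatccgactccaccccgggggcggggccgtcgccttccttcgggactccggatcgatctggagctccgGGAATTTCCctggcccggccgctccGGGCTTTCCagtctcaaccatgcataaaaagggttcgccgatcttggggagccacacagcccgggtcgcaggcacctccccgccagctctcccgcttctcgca
CXCL8: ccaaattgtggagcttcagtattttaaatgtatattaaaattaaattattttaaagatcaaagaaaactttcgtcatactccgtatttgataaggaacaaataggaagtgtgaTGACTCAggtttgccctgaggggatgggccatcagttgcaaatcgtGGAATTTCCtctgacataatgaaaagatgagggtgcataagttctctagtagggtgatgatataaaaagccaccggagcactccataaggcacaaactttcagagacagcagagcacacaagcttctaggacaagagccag
CXCL10: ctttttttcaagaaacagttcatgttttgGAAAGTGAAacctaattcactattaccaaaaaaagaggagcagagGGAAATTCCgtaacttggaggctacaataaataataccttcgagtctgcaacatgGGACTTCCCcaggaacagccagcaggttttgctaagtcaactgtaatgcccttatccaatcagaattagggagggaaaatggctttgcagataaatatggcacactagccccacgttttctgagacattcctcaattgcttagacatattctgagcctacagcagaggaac

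The NF-kappa B type letters were present in all 9 promoters, against 17.1% of 35116 RefSeq promoters. CXCL1, CXCL2 and CXCL3 each held 2 matches at nearly the same places, with first bases at -77 or -78 and at -53 from the start site. CXCL8, CXCL5 and CXCL6 held 1, at -91, -90 and -89. The AP-1 letters (7.71% of promoters) were found in CXCL8 and CXCL11, and the interferon letters (8.11%) in CXCL10 and also in CXCL2 and CXCL3. A match describes these letters in this window and is not a measured site.

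**Figure D1:**
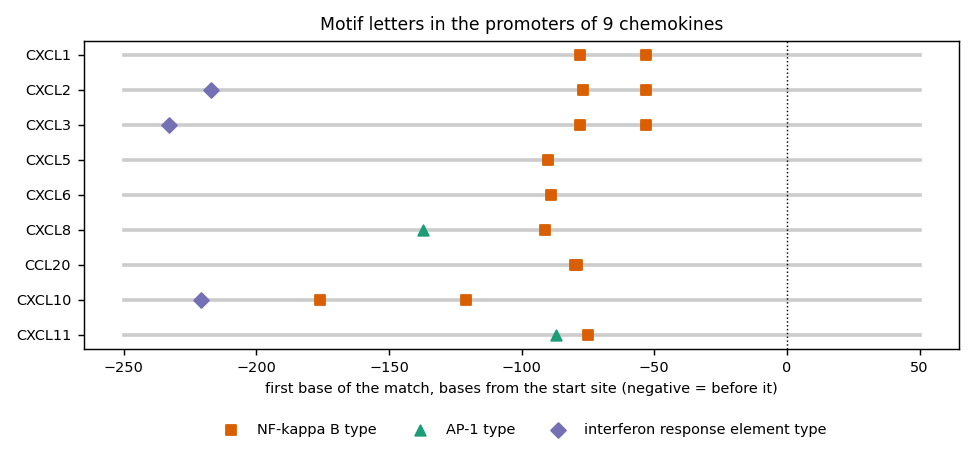
Matches to the motif letters in the 300-base promoters of the 9 chemokines found in RefSeq; the horizontal axis is the first base of each match in bases from the start site (dotted line), and symbols mark the NF-kappa B, AP-1 and interferon response element types. All 9 rows hold an NF-kappa B type match, CXCL1, CXCL2 and CXCL3 hold 2 at nearly the same places, and interferon type matches are seen in CXCL2, CXCL3 and CXCL10.

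Total counts per library ranged from 26430049 to 47639010 (median 32561793), so that 3 counts, the floor used for detection, equalled 0.0679 to 0.112 CPM (read counts scaled to library size, with TMM factors). FAT1 itself stood at 17.1% and 28.0% of its NC level in HN6 with siFAT1-1 and siFAT1-2, and at 39.3% and 65.4% in HN30. Its adjusted p was 0.0499 and 0.0561 in HN6 and 0.0946 and 0.422 in HN30, so the knockdown was weakest in HN30 with siFAT1-2. Of the squamous markers, 9 or 10 of 10 averaged at least 1 CPM in every condition, while KRT14 reached 2.42 CPM at most. The pan-leukocyte marker PTPRC was at most 0.0252 CPM, and MS4A1, FCGR3B and CD163 were at 0 in all 12 libraries, while 2 to 4 of the 14 leukocyte markers averaged at least 1 CPM, led by CD68 (16.1 to 121 CPM) and CD14 (2.08 to 15 CPM). Of the 9 fibroblast markers 3 or 4 averaged at least 1 CPM, led by COL1A1 (11.1 to 146 CPM). The summed levels ranged from 24.5 to 124 CPM for the leukocyte and 31.9 to 164 CPM for the fibroblast markers, and their part in the chemokine levels was not tested. In bulk RNA, fewer cells making a chemokine and less RNA per cell cannot be told apart. Repeats were not copies of 1 library: their counts were 14.3 to 236 times as dispersed as counting alone gives (chi-square over its degrees of freedom, across genes).

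Among the NC libraries CXCL1 was the leading chemokine of both lines. Genes were compared per kb of exon, with all annotated exons of a gene merged. This length exceeds that of the canonical transcript for some genes, as for CXCL3 (2219 against 1075 bases) and CCL20 (1594 against 834), and equals it for CXCL5. The order by canonical length was not examined. HN6 NC expressed CXCL1 at 117.7 ± 31.9 CPM per kb (SD, n = 2), followed by CXCL8 at 48.2 ± 36.5, CCL5 at 29.8 ± 17.3 and CXCL2 at 18.6 ± 8.05. The ranges of CXCL8 and CCL5, and of CCL5 and CXCL2, overlapped, so these neighbours were not ordered beyond their spread. In HN30 NC the order was CXCL1 at 99.4 ± 49.1 CPM per kb, CXCL5 at 65.4 ± 38.3, CXCL8 at 11.8 ± 1.37, CXCL2 at 11.7 ± 5.19 and CCL20 at 8.78 ± 5.02; CXCL1 and CXCL5 overlapped, as did CXCL8, CXCL2 and CCL20. CXCL10 and CXCL11 were low in both lines, at 1.53 ± 1.34 and 0.687 ± 0.927 CPM per kb in HN6 and 0.528 ± 0.679 and 0.25 ± 0.107 in HN30. CXCL1 had the highest mean of the 10 in each of the 6 conditions, although its range overlapped that of CXCL8 in HN6 siFAT1-2.

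The lines differed most in CXCL5, a neutrophil chemokine that HN6 hardly transcribed. HN6 libraries held 0 to 4 CXCL5 counts each, and the HN30 NC libraries held 7965 and 3708. The log2 difference of HN30 NC over HN6 NC was 10.29 ± 0.76 (SE; edgeR adjusted p = 3.49e-05). CXCL8 was lower in HN30 NC, at 28.0 and 33.0 CPM against 192 and 58.0 in HN6 NC (log2 -2.03 ± 0.46, adjusted p = 0.00905), and CCL5 was lower, at 1.16 and 2.39 CPM against 57.4 and 24.0 (log2 -4.51 ± 1.23, adjusted p = 0.0206). These 3 of 10 genes were called, where a call means an unadjusted P under 0.05 with an absolute log2 fold change above 1, and all 3 also had an adjusted p under 0.05. Over all genes 30.7% were called and 32.6% had an adjusted p under 0.05 in this comparison, so the share among the chemokines was near the background. The CXCL8 difference leaned on the first HN6 NC repeat: without it the log2 value was -0.94, short of the fold threshold (adjusted p = 0.0202). Without HN30 NC repeat 1 the adjusted p was 0.058 for CXCL8 and 0.112 for CCL5, while CXCL2 (-1.21) and CCL20 (1.74) were called too, which made 5. The count was also 5 without HN6 NC repeat 2, with CXCL2 (-1.06) and CXCL11 (-2.42) added.

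**Figure D2:**
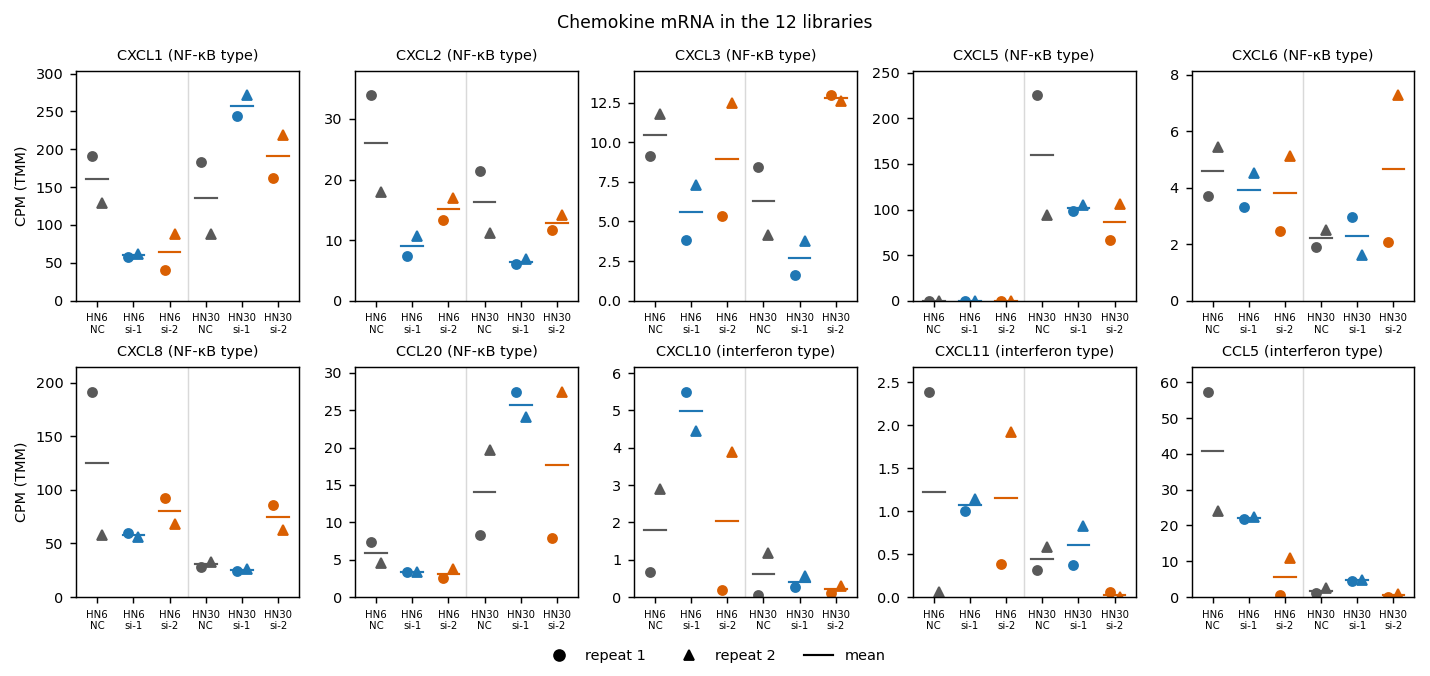
Level of each chemokine in the 12 libraries, in TMM-scaled CPM on a linear axis that starts at 0 for each gene; circles are repeat 1, triangles repeat 2, lines the mean, and si-1 and si-2 stand for siFAT1-1 and siFAT1-2. CXCL1, like CXCL2, CXCL5, CCL20 and CCL5, is lower in all 4 KD libraries than in both NC libraries of HN6 but not of HN30. CXCL2 is lowest with siFAT1-1 in both lines, and CCL5 is lowest with siFAT1-2 in both lines.

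FAT1 KD against NC, with both siRNAs and both lines in 1 fit, called 0 of the 10 chemokines, against 3.07% of all genes, and 0 had an adjusted p under 0.05, against 0.547% of all genes. Without adjustment 2 had a P under 0.05, CXCL2 and CXCL5, both with edgeR and with DESeq2 and limma-voom, which also called 0. CXCL2 had a log2 fold change of -0.93 ± 0.30 (SE; adjusted p = 0.186) and CXCL5 of -0.81 ± 0.35 (adjusted p = 0.312), where the CXCL5 value came in practice from HN30. The median log2 fold change was -0.16 over the NF-kappa B type and -0.31 over the interferon type, beside 0.02 over all genes tested. In 0 of the 10 were all 8 KD libraries above, or all below, the NC libraries of the matching line, a pattern seen for 5.44% of all genes. The count of 0 depended on single libraries, since CXCL2 passed the call thresholds without HN6 NC repeat 2 (-1.06), HN6 siFAT1-2 repeat 2 (-1.02), HN30 siFAT1-2 repeat 2 (-1.05) or HN30 NC repeat 2 (-1.12), and CXCL5 passed without the last of these (-1.18).

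The siRNAs were then compared with NC 1 at a time; both comparisons use the same 4 NC libraries. With siFAT1-1, CXCL2 and CXCL3, the ELR neighbours with the longest identical run between their transcripts, were lower. CXCL2 stood at 7.38 and 10.7 CPM in HN6 and at 6.10 and 6.81 in HN30, against NC levels of 33.9 and 18.0 in HN6 and 21.4 and 11.2 in HN30. In each line both siFAT1-1 libraries were below both NC libraries, and the log2 fold change was -1.43 ± 0.27 (SE, edgeR adjusted p = 0.0152). How many of all genes lay apart from NC in this way with a single siRNA, or within a single line, was not counted. CXCL3 was at 3.85 and 7.33 CPM in HN6 and 1.65 and 3.79 in HN30, below the NC values of 9.15 and 11.8 in HN6 and of 8.43 and 4.13 in HN30. Its log2 fold change of -1.03 ± 0.43 passed the call thresholds but not the adjustment (adjusted p = 0.222). Of the 10 genes 2 were called, against 5.58% of all genes, and 1 had an adjusted p under 0.05, against 3.25%. The CXCL2 call was kept without any 1 of the 12 libraries (log2 -1.61 to -1.20), although the adjusted p rose above 0.05 in 4 of these fits and reached 0.0726 without HN30 siFAT1-1 repeat 1. The CXCL3 call was lost in 6 of 12 such fits (log2 -1.39 to -0.77), those without either HN6 NC library, HN6 siFAT1-1 repeat 1, HN30 NC repeat 1 or either HN30 siFAT1-1 library. The summed level of the squamous markers also moved with this siRNA, at 5761 to 6651 CPM in HN6 siFAT1-1 against 2661 to 3966 in HN6 NC, and 3694 to 3983 in HN30 siFAT1-1 against 2208 to 2499 in HN30 NC. Summed fibroblast markers were at 88.9 to 112 CPM against 74.4 to 74.9 in HN6 and 63.2 to 70.9 against 31.9 to 35.0 in HN30. Summed endothelial markers were at 8.60 to 10.3 CPM against 2.46 to 7.07 in HN6 and 2.96 to 3.52 against 0.82 to 0.983 in HN30. Summed leukocyte markers did not rise, at 80.8 to 87.0 CPM against 90.8 to 102.4 in HN6 and 28.3 to 31.45 against 27.9 to 36.15 in HN30. With siFAT1-2 the summed fibroblast markers were above NC in HN30 too, at 49.25 to 76.2 CPM. In HN6 they were at 69.8 to 163.9 with siFAT1-2, on both sides of NC. The part of these markers in the chemokine values was not tested.

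With siFAT1-2, 1 of 10 members was called, against 9.06% of all genes, a share near the background. It was CCL5, a T cell attractant. CCL5 was at 0.443 and 11.04 CPM in HN6, where NC gave 57.4 and 24.0, and at 0.115 and 0.932 in HN30, where NC gave 1.16 and 2.39. All 4 siFAT1-2 libraries were below both NC libraries of their line, a pattern whose share over all genes was not counted. The log2 fold change was -2.41 ± 0.82 (SE). The adjusted p was 0.0776, so 0 of 10 passed the adjustment with edgeR, against 11.8% of all genes, whereas CCL5 passed it with DESeq2 and limma-voom; with edgeR 2 members, CXCL5 and CCL5, had an unadjusted P under 0.05. The size of the CCL5 difference moved between -3.64 and -1.82 when 1 library was left out, and the call was kept in all 12 fits. HN6 siFAT1-2 repeat 1 held 16 CCL5 counts and repeat 2 held 367. A count of 2 was reached when CXCL5 was also called, without HN6 siFAT1-2 repeat 1 (-1.02), HN30 NC repeat 2 (-1.31) or HN30 siFAT1-2 repeat 2 (-1.22), or when CXCL11 was, without HN6 siFAT1-2 repeat 2 (-2.44).

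Compared with each other, the siRNAs left different levels of CXCL3, CXCL2, CXCL8 and CCL5. CXCL3 was lower with siFAT1-1 than with siFAT1-2 (log2 -1.49 ± 0.44, SE; adjusted p = 0.0385), CXCL2 was lower (-0.87 ± 0.27, adjusted p = 0.0440) and CXCL8, the principal human neutrophil attractant, was lower by the call thresholds (-1.09 ± 0.40, adjusted p = 0.0807). CCL5 was higher with siFAT1-1 than with siFAT1-2, by 2.63 ± 0.84 on the log2 scale (adjusted p = 0.0489). Against NC, siFAT1-1 left CCL5 at 54.1% of the NC mean in HN6 and at 261.6% in HN30. Over both lines that log2 fold change was 0.21 ± 0.79 (edgeR adjusted p = 0.913). Between the siRNAs the other interferon type genes had values of the same sign as CCL5. These were 1.18 ± 0.91 for CXCL10 and 1.19 ± 1.05 for CXCL11, which did not pass (adjusted p = 0.388 and 0.451). The call thresholds were met by 3 of the 10 genes, CXCL3, CXCL8 and CCL5, against 12.4% of all genes, and an adjusted p under 0.05 by 3, CXCL2, CXCL3 and CCL5, against 17.4%. Of the 7 NF-kappa B type genes 4 had a negative value, the others being CXCL1, CXCL5 and CCL20. The median was -0.54 over the NF-kappa B type and 1.19 over the interferon type, beside -0.02 over all genes.

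In HN30 the siFAT1-2 libraries gave CXCL8 at 86.0 and 62.9 CPM, and the siFAT1-1 libraries gave 24.8 and 26.5. In HN6 they gave 92.9 and 68.0 with siFAT1-2 and 59.8 and 56.3 with siFAT1-1. CXCL3 was at 12.97 and 12.6 CPM in HN30 with siFAT1-2, above every siFAT1-1 library, while the HN6 values with siFAT1-2, 5.37 and 12.5 CPM, overlapped those with siFAT1-1. The libraries of the siRNAs lay apart on the same side in both lines for 3 of 10 chemokines (CXCL2 and CXCL8 lower and CCL5 higher with siFAT1-1), which was near the 34.1% of all genes. With the repeat as a replicate block, 1 of the 3 adjusted calls held, that of CXCL3 (adjusted p = 0.038), while CXCL2 and CCL5 had adjusted p values of 0.0599 and 0.051. Leaving out 1 library raised the adjusted p above 0.05 in 7 of 12 fits for CXCL2, 6 for CXCL3 and 9 for CCL5, with highest values of 0.128 without HN6 siFAT1-1 repeat 1, 0.12 without HN30 siFAT1-1 repeat 1 and 0.121 without HN30 siFAT1-2 repeat 1. The CXCL8 call was lost without HN30 siFAT1-2 repeat 1 (-0.80), and without HN6 siFAT1-2 repeat 2 CXCL10 (2.64) and CXCL11 (2.58) were called too, which made 5.

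**Figure D3:**
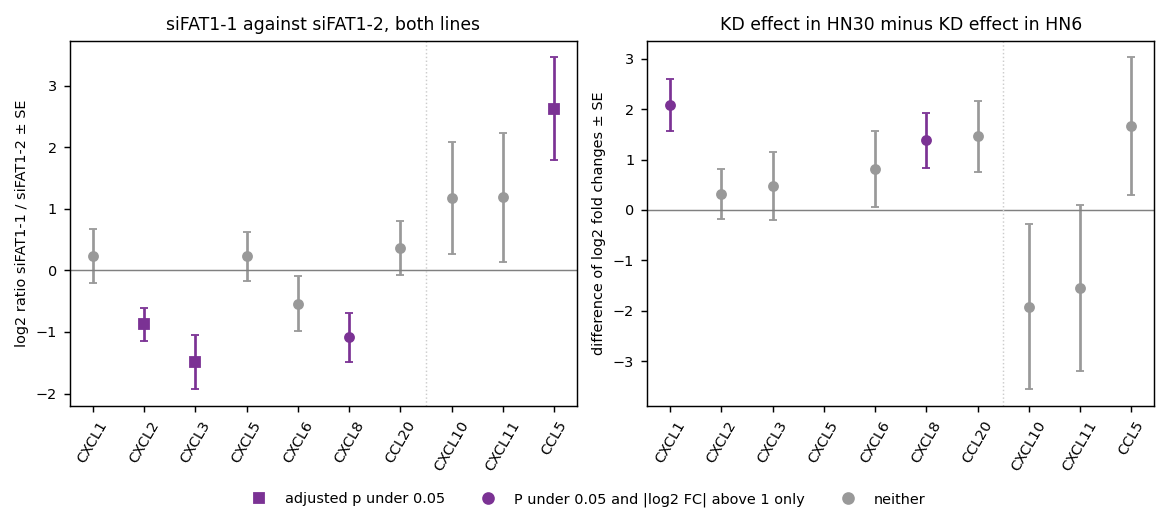
Left, log2 ratio of siFAT1-1 to siFAT1-2 over both lines; right, the mean KD effect in HN30 minus that in HN6 on the log2 scale (CXCL5 left out, since HN6 held 0 to 4 counts); points are edgeR estimates, bars are standard errors, squares have an adjusted p under 0.05 and purple circles pass the unadjusted thresholds only. On the left CXCL2, CXCL3 and CXCL8 are below 0 and CCL5 is above it; on the right CXCL1 (2.08) and CXCL8 (1.39) are above 0.

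Within HN6 CXCL1 was called lower with either siRNA. CXCL1 was at 191 and 129.6 CPM with NC, 58.3 and 61.3 with siFAT1-1 and 40.6 and 87.7 with siFAT1-2. All 4 KD libraries were below both NC libraries, at 37.3% and 40.0% of the NC mean. CXCL2, CXCL5, CCL20 and CCL5 showed this separation in HN6 too, and its share over all genes was not counted. The log2 fold change was -1.42 ± 0.42 (SE; adjusted p = 0.403) with siFAT1-1 and -1.32 ± 0.41 (adjusted p = 0.119) with siFAT1-2. With siFAT1-1, CXCL2 (-1.52 ± 0.41, adjusted p = 0.32) and CXCL8 (-1.10 ± 0.45, adjusted p = 0.618) were also called, which made 3 of 10 against 3.02% of all genes, and the 6 NF-kappa B type genes other than CXCL5 had negative values. With siFAT1-2, CXCL1 and CCL5 (-2.83 ± 1.13, adjusted p = 0.186) were called, 2 of 10 against 10.9%. In HN6 0 of 10 had an adjusted p under 0.05 for either siRNA with edgeR or limma-voom, against 0.108% and 0.59% of all genes, while DESeq2 gave 1 each, CXCL2 with siFAT1-1 and CXCL1 with siFAT1-2. Unadjusted P values under 0.05 were those of the called genes alone.

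The CXCL8 call in HN6 rested on NC repeat 1, which stood at 192 CPM beside 58.0 in repeat 2. Without it the log2 fold change with siFAT1-1 was -0.01, and the call was also lost without either HN6 siFAT1-1 library and with the repeat as a block (-0.91). Without HN6 siFAT1-1 repeat 1 the calls of CXCL1 (-1.36) and CXCL2 (-1.26) with siFAT1-1 were lost as well, leaving 0. With siFAT1-2 the CXCL1 call was lost without HN6 NC repeat 1 (-1.03) or HN6 siFAT1-2 repeat 1 (-0.87), and the CCL5 call without the same libraries (-2.08 and -1.88) or HN6 siFAT1-1 repeat 1 (-2.77). The siFAT1-2 count was 4 without HN6 NC repeat 2, with CXCL2 (-1.17) and CXCL8 (-1.26) added. CXCL11 was called higher without HN6 NC repeat 1 (4.16 with siFAT1-1 and 4.26 with siFAT1-2), the library that held 70 of its 72 NC counts, and CXCL5, at 4 counts or fewer, was called with siFAT1-2 without HN6 siFAT1-2 repeat 1.

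Within HN30 CXCL1 went the other way. It was at 182.7 and 88.1 CPM with NC, 244 and 271 with siFAT1-1 and 162 and 219 with siFAT1-2. Both siFAT1-1 libraries were above both NC libraries, and the siFAT1-2 range overlapped that of NC; the log2 fold changes were 0.93 ± 0.41 (SE; adjusted p = 0.279) and 0.49 ± 0.41 (adjusted p = 0.592). With siFAT1-1, CXCL2 was called lower (-1.33 ± 0.41, adjusted p = 0.133), 1 of 10 against 9.22% of all genes. With siFAT1-2, CXCL8 was called higher (1.29 ± 0.45, adjusted p = 0.188), 1 of 10 against 8.48%. Both shares were near the background. An adjusted p under 0.05 was reached by 0 of 10 with edgeR and limma-voom, against 1.46% and 0.173% of all genes, and DESeq2 gave 1, CXCL2 with siFAT1-1. Without adjustment CXCL1 and CXCL2 with siFAT1-1 and CXCL8 with siFAT1-2 had a P under 0.05. With the repeat as a block CXCL3 was called too with siFAT1-1 (-1.20, adjusted p = 0.246). The CXCL2 call was lost without HN30 NC repeat 1 (-0.79) or HN30 siFAT1-1 repeat 1 (-1.26), and that of CXCL8 without HN30 NC repeat 1 (1.17) or HN30 siFAT1-2 repeat 1 (1.04). Without HN30 NC repeat 2 the siFAT1-1 count was 4, with CXCL3 (-1.63), CXCL5 (-1.15) and CCL20 (1.62) added. CXCL3 was added without either HN6 siFAT1-2 library (-1.20 and -1.21) or HN30 siFAT1-1 repeat 2 (-1.94). With siFAT1-2 the count was 2 when CXCL11 was added without either HN6 NC library (-3.79 and -3.78), CCL5 without either HN6 siFAT1-2 library (-1.76 for each) or CXCL5 without HN30 NC repeat 2 (-1.39), and it was 2, CXCL1 (1.11) and CXCL3 (1.63), without HN30 NC repeat 1. Without HN30 siFAT1-2 repeat 1 CXCL6 (1.72) was called in place of CXCL8, and CXCL1 was called with siFAT1-1 without HN30 NC repeat 1 (1.55).

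**Figure D4:**
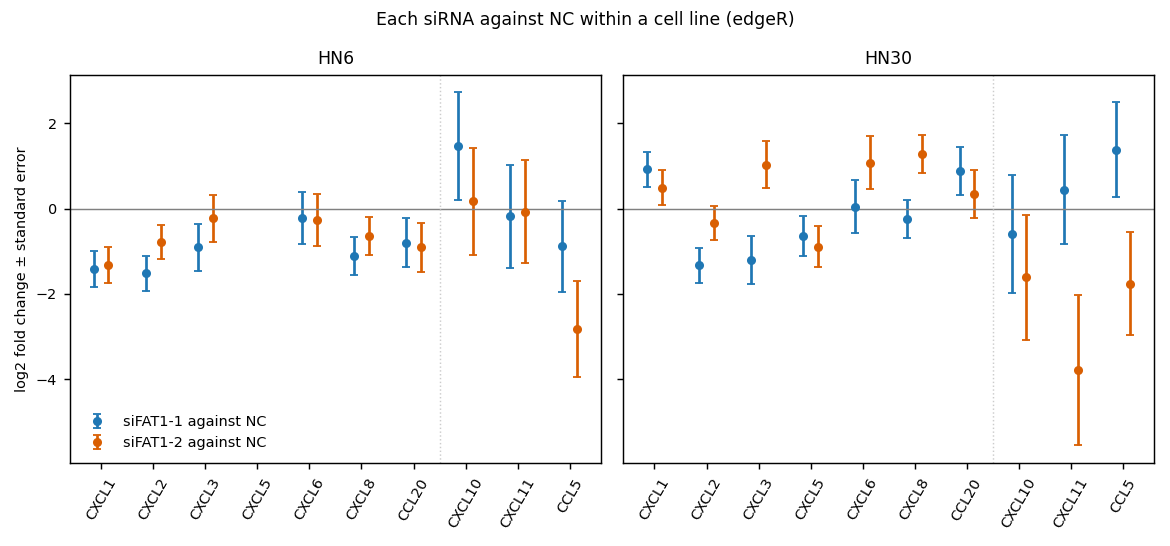
Log2 fold change of each siRNA against NC within HN6 (left) and HN30 (right); points are edgeR estimates from the fit of 6 conditions, bars are standard errors, and CXCL5 is left out of HN6, where libraries held 0 to 4 counts. CXCL1 lies near -1.4 with both siRNAs in HN6 and above 0 with both in HN30, and CXCL8 is at 1.29 in HN30 with siFAT1-2.

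The difference between the lines was tested as the mean KD effect in HN30 minus that in HN6. CXCL1 differed by 2.08 ± 0.51 on the log2 scale (SE) and CXCL8 by 1.39 ± 0.55, and both were called, 2 of 10 against 2.53% of all genes. Neither passed the adjustment (adjusted p = 0.974 for both), and 0% of all genes did: with edgeR 0 genes had an adjusted p under 0.05 while 556 had an unadjusted P under 0.05, with limma-voom 0 and with DESeq2 2. None of those 2 was a chemokine of the 10. FAT1 itself was called in this comparison, at 1.21 ± 0.43 (SE, edgeR adjusted p = 0.974), its reduction being smaller in HN30. The part of knockdown depth in the chemokine differences was not tested. The CXCL1 call was kept in all 12 fits that left out 1 library (log2 1.65 to 2.70), and that of CXCL8 was lost in 7 of 12 (0.29 to 2.03), with the lowest value without HN6 NC repeat 1. The others were either HN6 siFAT1-1 library, HN6 siFAT1-2 repeat 2, either HN30 NC library and HN30 siFAT1-2 repeat 1. CCL20, the CCR6 ligand, had a value of 1.46 ± 0.70, which passed the call thresholds with the repeat as a block (1.53), with DESeq2, without the filter on low counts, and without HN6 NC repeat 2 (1.80), HN30 NC repeat 2 (2.21) or HN30 siFAT1-2 repeat 1 (1.78). CCL20 was 3.38 and 3.40 CPM with siFAT1-1 in HN6 against 4.51 and 7.31 with NC, and 24.1 and 27.5 with siFAT1-1 in HN30 against 8.35 and 19.7 with NC.

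The remaining ELR genes showed smaller or less certain values. CXCL5 in HN30 was at 225 and 93.4 CPM with NC, 98.0 and 105.4 with siFAT1-1 and 66.2 and 105.7 with siFAT1-2. The NC range held 3 of the 4 KD values, and the log2 fold changes were -0.65 ± 0.47 (SE) and -0.89 ± 0.48 (adjusted p = 0.528 and 0.382). CXCL6 ranged from 1.60 to 7.28 CPM over the 12 libraries, with its highest value in HN30 siFAT1-2 repeat 2 beside 2.08 in repeat 1, and edgeR called it in no comparison with all libraries.

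The CXCR3 ligands were near the lower end of what could be measured. CXCL10 had 2 to 243 counts and CXCL11 had 0 to 70 counts per library. In HN6, CXCL10 was at 5.50 and 4.46 CPM with siFAT1-1, above the NC values of 0.683 and 2.90, yet the log2 fold change of 1.47 ± 1.27 (SE) did not pass (adjusted p = 0.882). The HN6 siFAT1-2 libraries held 7 and 129 CXCL10 counts, so the repeats of this condition differed widely. In HN30, CXCL11 had 2 counts over both siFAT1-2 libraries and 34 over both NC libraries, a ratio of 0.0639 with a 95% counting interval of 0.00744 to 0.249, which covers counting error only and not the spread between repeats. The edgeR test of this difference did not pass (adjusted p = 0.314).

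The genes were also seen as 2 profiles, each the mean over its members of log2 CPM relative to the NC mean of the same line. The NF-kappa B profile was between -0.98 and -0.55 in the 4 HN6 KD libraries and between -0.22 and 0.73 in the 4 HN30 KD libraries. It includes CXCL5, at 0 to 4 counts per HN6 library. Without CXCL5, an alternative chosen after seeing the data, the ranges were -1.10 to -0.37 in HN6 and -0.16 to 0.93 in HN30. The interferon profile was 0.71 and 0.69 in HN6 and 0.33 and 1.02 in HN30 with siFAT1-1, and -3.01 and 0.52 in HN6 and -2.17 and -1.33 in HN30 with siFAT1-2. Among the HN6 KD libraries the single negative value belonged to siFAT1-2 repeat 1. NC repeats 1 and 2 were themselves at 0.61 and -0.61 in HN6 and at -0.87 and 0.87 in HN30. The HN6 siFAT1-1 values were thus little above NC repeat 1, and the HN30 siFAT1-1 value of 0.33 lay within the NC range. In HN6 with siFAT1-1 the members of this profile went different ways. CXCL10 was at 1.91 and 1.61 and CXCL11 at 0.99 and 1.19, while CCL5 was at -0.77 and -0.73. The HN6 NC repeats of CXCL11 were themselves at 2.21 and -2.21. On the NF-kappa B profile the NC repeats were at 0.23 and -0.23 in HN6 and at 0.17 and -0.17 in HN30. The genes whose own profile lay closest to the NF-kappa B profile over the 12 libraries were TANGO6, PNP, ZNF697, USP36 and SLC25A42, with root-mean-square differences of 0.24 to 0.29 on the log2 scale, while the members themselves lay at 0.54 to 0.70. For the interferon profile they were SLC7A11, GREB1L, C15orf56, AKR1B10 and TNS4, at 0.40 to 0.63, against 1.04 to 1.38 for the members. These genes were picked for being closest, so that they lie closer than the members follows from the choice.

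The wider pathway was described by lists of ligands, NF-kappa B and interferon genes, by counts only. Of 26 upstream ligands 15 were tested, and 2 were called lower with FAT1 KD, against 3.07% of all genes called. They were IL1B (log2 -1.66 ± 0.44, SE, edgeR adjusted p = 0.121) and IL1A (-1.19 ± 0.45, edgeR adjusted p = 0.247), the interleukins that switch on NF-kappa B. The median of the list was -0.67 beside 0.02 over all genes. IL1B was lower with siFAT1-1 (-2.64 ± 0.35, adjusted p = 0.00319) and was called lower with siFAT1-2 too (-1.085 ± 0.34, edgeR adjusted p = 0.0553). It was lower with siFAT1-1 than with siFAT1-2 (-1.56 ± 0.34, adjusted p = 0.011). With siFAT1-2 4 of the 15 ligands were called lower (median -0.98), against 9.06% of all genes called. With siFAT1-1 2 were called lower (median -0.18), against 5.58%. Between the siRNAs the list as a whole had a median of 0.70, with 3 of 15 called higher and 2 lower with siFAT1-1, so IL1B did not stand for the list. Of all genes 12.4% were called in this comparison. Of 22 NF-kappa B subunits, kinases and inhibitors 4 were called lower with KD, RELB, NFKBIE, TRAF1 and TNFRSF9, and 0 higher, with a median of -0.48, against 3.07% of all genes called. With siFAT1-1 against NC 0 of these 22 were called by edgeR, against 5.58% of all genes, while 6 had an unadjusted P under 0.05. With siFAT1-2 8 were called lower, against 9.06% of all genes. Between the siRNAs 3 were called higher with siFAT1-1 and 0 lower, a share near the 12.4% of all genes, and the median was 0.40. NFKBIE, an inhibitor that NF-kappa B itself induces, was at -1.01 ± 0.22 (adjusted p = 0.0635), and the feedback inhibitor TNFAIP3 at -0.88 ± 0.21 (adjusted p = 0.0853). Of 18 other NF-kappa B targets tested, 2 were called lower and 1 higher (CD83, MMP9 and SDC4), against 3.07% of all genes called. CD83, a surface glycoprotein of activated immune cells, had an adjusted p under 0.05 (-1.89 ± 0.27, edgeR adjusted p = 0.00855).

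On the interferon side, FAT1 KD against NC called 1 of 30 interferon-stimulated genes, IFIT2, a translation-blocking antiviral protein (1.24 ± 0.56, SE; adjusted p = 0.336), a share near the 3.07% of all genes, and IFI44 had 1.21 ± 0.66 (adjusted p = 0.424). Against NC, 7 were called higher and 0 lower with siFAT1-1 (median 1.06), where 5.58% of all genes were called. With siFAT1-2, 3 were called lower and 0 higher (median -0.69), a share near the 9.06% of all genes. Between the siRNAs 22 of the 30 were called higher with siFAT1-1 and 0 lower, against 12.4% of all genes. An adjusted p under 0.05 was reached by 9, against 17.4% of all genes, and the median was 1.62 beside -0.02 over all genes. Of 22 interferon receptors and regulators 0 were called with KD by edgeR, while 3 had an unadjusted P under 0.05; the receptor chain IFNAR2 was at -0.69 ± 0.15 (adjusted p = 0.0637) and the kinase TYK2 at -0.56 ± 0.14 (adjusted p = 0.0944). Of 36 other chemokines 7 were tested and 0 were called with KD, with CXCL16, the CXCR6 ligand, at -0.51 ± 0.20 (adjusted p = 0.271) and CCL28 at -0.23 ± 0.24 (adjusted p = 0.689). Of 22 chemokine receptors 4 passed the filter and 0 were called, with CXCR6 at 1.11 ± 0.76 (adjusted p = 0.525) and the scavenging receptor ACKR4 at 0.30 ± 0.77 (adjusted p = 0.888).

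**Figure D5:**
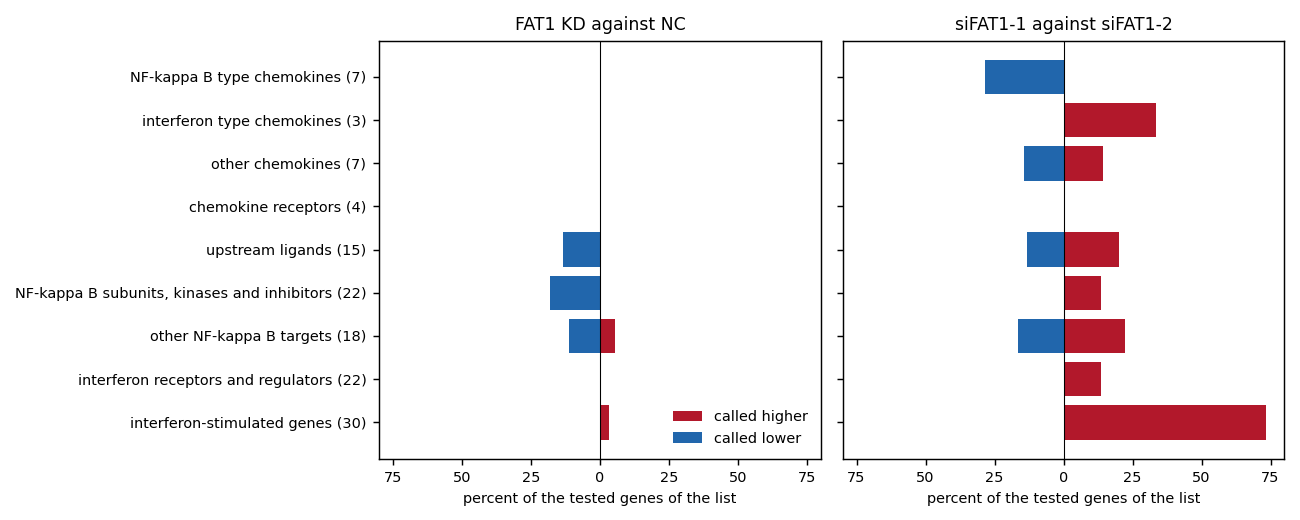
Percent of the tested genes of each list that were called higher (red, right) or lower (blue, left) in FAT1 KD against NC (left panel) and in siFAT1-1 against siFAT1-2 (right panel); the number of tested genes is in parentheses. With KD the calls in the NF-kappa B and upstream ligand lists are mostly lower. Between the siRNAs 22 of 30 interferon-stimulated genes are higher with siFAT1-1, where 12.4% of all genes were called in either direction.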

How the data were processed

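Poly(A) RNA of 12 libraries was read as 150-base pairs. Reads with poly-N, of low quality or duplicated were discarded by the authors, who aligned what was left against hg38 and deposited raw whole-number counts per gene. HISAT2 and featureCounts are named, without versions, in the submitters' processing notes. Which annotation was used, and whether counting was strand-specific, is not given in the sources used here. Duplicate removal can cap very abundant genes, and whether reads of CXCL1, CXCL2 and CXCL3 were split or lost among these similar genes was not tested. Titles call the knockdown groups sh1 and sh2 and the descriptions siRNA-1 and siRNA-2; they were taken as siFAT1-1 and siFAT1-2. Columns left out: 0.

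Counts were analysed with edgeR 4.0.16 in R 4.3.3 (TMM, filterByExpr with a minimum count of 10, glmQLFit, glmQLFTest, Benjamini-Hochberg over 13887 genes). KD against NC used cell line and KD as terms, the siRNA comparisons cell line and siRNA, and comparisons within or between lines the means of the 6 conditions. Calls followed the study's thresholds (P under 0.05 before adjustment, log2 fold change beyond 1 in either direction). The fits were tested on simulated data. limma 3.58.1 (voom) and DESeq2 1.42.0 were alternatives, with DESeq2 size factors, no filter, a replicate block, no cell line term and leaving out each library. Named genes were the 10 chemokines, FAT1, genes of each list with an adjusted p under 0.05 in KD against NC or else the 2 with the smallest p, and the 5 genes closest to each profile; RELB, TRAF1, TNFRSF9, MMP9, SDC4 and single marker genes were named after their values were seen. Members and lists were chosen with earlier results of these data known. Exon lengths came from GENCODE 44. Python 3.11.15 (pandas 2.3.3, scipy 1.17.1, numpy 2.4.6) gave the summaries and matplotlib 3.10.9 the figures.

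Per the labels, libraries with the same repeat number share a time, which pairs them within a line. The fits above have no pair term, and the replicate block was an alternative. As a check, each library's deviation from its condition mean was correlated across genes with that of its partner. In HN6 the correlation was 0.0778 between NC and siFAT1-1, 0.219 between NC and siFAT1-2 and 0.242 between the siRNAs. In HN30 the values in that order were -0.0337, 0.405 and -0.0216.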

Additional observations from a re-analysis of the deposited data

Results flagged for a closer look

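The effect of FAT1 KD on 2 chemokines differed between the lines by the unadjusted test of the difference itself. For CXCL1, the mean log2 fold change of both siRNAs was 2.08 higher in HN30 than in HN6, and for CXCL8 it was 1.39 higher. The adjusted p was 0.974 for each. FAT1 itself was also called in this comparison (1.21 ± 0.43, SE), its reduction being smaller in HN30. Neither chemokine difference was weighed further.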

How the results depend on the processing

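The counts of called chemokines changed by more than 1.5 times under 5 other settings in 4 comparisons. For siFAT1-1 against NC the count was 1 in place of 2 with DESeq2 size factors and with DESeq2. In HN30 it was 2 in place of 1 for siFAT1-1 without the filter, with DESeq2, with limma-voom and with the replicate block, and for siFAT1-2 without the filter, with DESeq2 and with limma-voom. For the difference between lines it was 1 in place of 2 with limma-voom. The cause was not tested.

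Leaving out 1 library gave counts of 0 to 2 for KD against NC, 1 to 3 for siFAT1-1, 1 to 2 for siFAT1-2, 2 to 5 between the siRNAs, 0 to 3 and 1 to 4 in HN6 for siFAT1-1 and siFAT1-2, 0 to 4 and 1 to 2 in HN30, 1 to 3 for the difference between lines and 2 to 5 between the NC groups. In KD against NC, CCL20 turned to 0.089 with limma-voom and 0.33 without the cell line term, CXCL10 to 0.33 with limma-voom, 0.42 with the replicate block and 0.66 without the cell line term, and CXCL11 to 0.16 with limma-voom. With 1 library left out the log2 values ran from -0.51 to 0.18 for CCL20, -0.55 to 1.25 for CXCL10, -0.80 to 0.49 for CXCL11, -0.38 to 0.047 for CXCL3, -0.13 to 0.40 for CXCL6 and -0.39 to 0.53 for CXCL8. None of these was called.

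Over all genes the replicate block, which pairs libraries of the same repeat, left 44 in place of 76 adjusted calls for KD against NC, 1 in place of 15 and 6 in place of 82 in HN6 with siFAT1-1 and siFAT1-2, and 11 in place of 24 in HN30 with siFAT1-2. The block gave more adjusted calls in HN30 with siFAT1-1 (254 in place of 203). It also gave more between the siRNAs (2525 in place of 2420) and between the NC groups (4920 in place of 4524). DESeq2 gave 640 for KD against NC, 1216 in place of 451 for siFAT1-1, 2694 in place of 1637 for siFAT1-2, 189 and 1412 in HN6, 1165 in place of 203 and 969 in HN30. In HN6 with siFAT1-2 the count was 53 with DESeq2 size factors, 170 without the filter and 309 with limma-voom, and in HN30 with siFAT1-2 it was 74 without the filter and 40 with limma-voom. Without a cell line term KD against NC had 4 adjusted calls and 231 in place of 426 calls. Having 2 repeats of a condition, and 0 to 70 counts for CXCL11, limits what could be called.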
